A study of Mus musculus with 4 samples.

Results

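The genes described here encode nuclear subunits of the mitochondrial respiratory chain and of ATP synthase, measured by RNA sequencing in primary squamous cell carcinomas of mice. They were chosen by a rule on symbols that uses no measured value but was set with earlier results of these data known. It takes names that start with Nduf, Uqcr, Atp5, Cox4i, Cox5, Cox6, Cox7 or Cox8, and Sdha, Sdhb, Sdhc and Sdhd. Of the 14159 genes in the table, 88 met the rule, and all 88 passed the filter on low values. By role, 77 encode subunits (36 of complex I, 4 of complex II, 8 of complex III, 14 of complex IV and 15 of complex V), 7 are Ndufaf assembly factors of complex I, and 4 are relatives that carry such a name (Cox7a2l, Ndufa4l2, Atp5s and Atp5sl). Ndufa4 was counted with complex IV, where its product is now placed.

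The study compared 2 libraries from control tumours with 2 libraries from tumours in which Kdm4a, a histone demethylase gene, was deleted by an inducible system. The tumours were not cultured. The sources used here do not give the strain, sex and age of the mice, the promoter that drives the deletion, the cells it reaches or how the controls were treated. The deposited levels were read as FPKM, which scales fragments to transcript length and library size, although their sheet is named for CPM, which has no length scaling. The depth behind them is unknown. The control columns carry the same name and are called control libraries a and b. Nothing says that the libraries came from separate animals, so p-values rest on the spread among 4 samples alone, and that spread may be technical.

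Oxidative phosphorylation moves electrons from NADH (through complex I) and succinate (through complex II) to ubiquinone, on to cytochrome c (through complex III) and finally to oxygen (through complex IV). Complexes I, III and IV pump protons across the inner mitochondrial membrane, and complex V, ATP synthase, lets them flow back and makes ATP. Most subunits are encoded in the nucleus and imported. A few, among them the proton-pumping cores of complexes I, III and IV, are encoded in mitochondrial DNA, and the 13 genes of that kind were not analysed here.

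Kdm4a itself stood at 29.6 and 27.7 FPKM (controls) against 14.9 and 14.7 (knockouts). The keratin gene Krt5 of basal squamous cells had 2301 and 2370 FPKM (controls) against 1285 and 1188 (knockouts), so the labelled tissue showed its marker in all 4 libraries. Over 8 squamous epithelium markers the summed level was 9007 to 9137 FPKM in control and 4938 to 5118 in knockout, and 6 were called lower. Trp63 (80.3 and 84.6 FPKM in control, 85.8 and 70.5 in knockout) and Sfn (299 and 305, 326 and 313) were not called. Calls here are those of the fit described below, which covered 63.9% of all tested genes, 30.1% higher and 33.8% lower. Markers of other cells moved as well. All 4 lymphocyte markers were called higher (summed 16.4 to 19.9 FPKM in control, 39.9 to 61.3 in knockout), as were 3 of 3 macrophage markers (93.4 to 96.3 and 142 to 161) and 4 of 4 salivary secretory markers (6.46 to 36.1 and 1057 to 4761). Of 9 tested skeletal muscle markers 0 were called by limma, and their sum with Actn3, which was under the filter, overlapped between groups (354 to 397 FPKM in control, 353 to 443 in knockout). The lowest mean of any gene in the table was 0.25 FPKM, so no marker in it could be at 0 in every library. Listed markers without a row were not analysed here. In RNA of whole tumours fewer cells of a type and less RNA per cell cannot be told apart, and the part of these cell types in the results below was not tested.

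Respiratory chain and ATP synthase genes moved in both directions between the groups, and within the same complex. Of the 88 genes, 32 were called higher and 10 lower in knockout, and 46 were not called (limma on log2(FPKM + 1), Benjamini-Hochberg adjusted over the 12046 genes tested, threshold 0.05). Among all tested genes 63.9% were called, 30.1% higher and 33.8% lower. The share of these genes called higher was thus near the background and the share called lower was smaller, a contrast that was not tested. Their median log2 difference, knockout minus control, was 0.13, against -0.03 over all tested genes. The knockout libraries lay both above both control libraries for 46 of the 88 genes and both below them for 21. The same separations covered 40.4% and 43.5% of all tested genes. The median absolute log2 difference across these genes was 0.07 within control, 0.09 within knockout and 0.23 to 0.26 from one group to the other, where all tested genes gave 0.46 to 0.49.

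**Figure D1:**
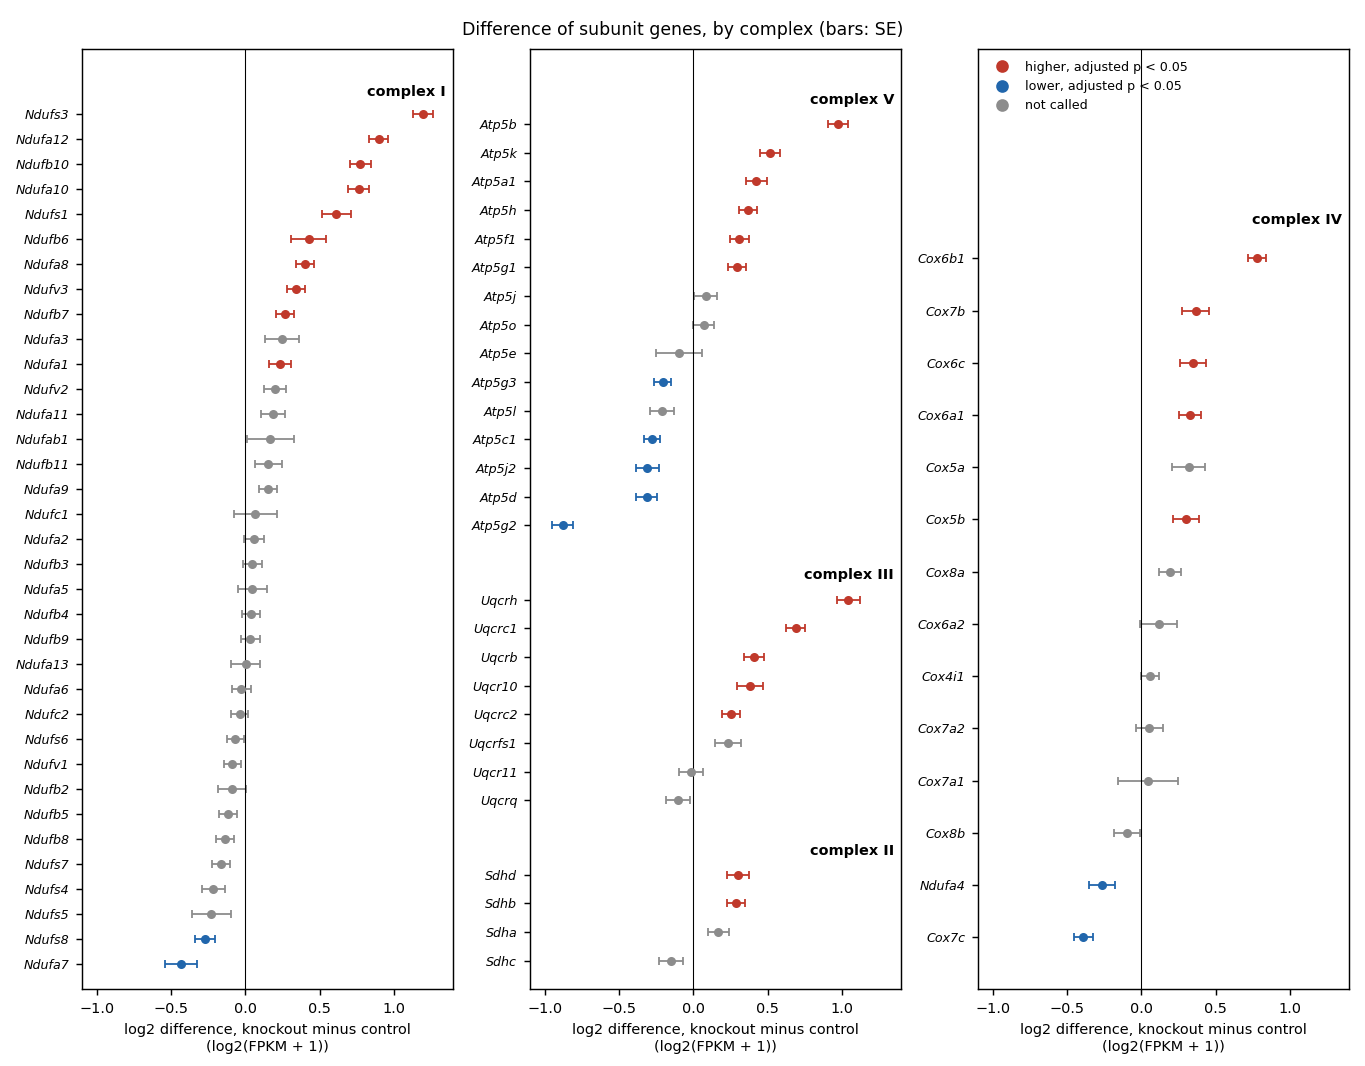
Log2 difference (knockout minus control, on the log2(FPKM + 1) scale, x axis) of 76 of the 77 subunit genes, ordered within each complex; points are limma estimates from 2 libraries a group, bars are the moderated SE, and colour marks the call. Complexes I, IV and V hold both red and blue points, from 1.20 for Ndufs3 to -0.88 for Atp5g2.

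Fewer members were called when either control library was left out. With 1 control library left, the spread within groups was measured on the knockout pair alone. Over all tested genes the median absolute log2 difference was 0.14 within knockout and 0.07 within control. The median log2 difference over the 88 genes moved from 0.13 to 0.095 on dropping control library a, and to 0.15 on dropping b. The cause of the lost calls was not tested. With control library a left out, 13 members were called higher and 1 lower, and with b left out 23 and 2. Over 15 alternative settings, 14 of the 42 called members kept their call and direction in each, among them Ndufs1, Ndufs3, Ndufa8, Ndufa10, Ndufa12, Ndufb10, Ndufaf1, Uqcrc1, Uqcrh, Cox6b1, Atp5b and Atp5k as higher, and Atp5g2 as lower. The other 28 lost the call in at least 1 setting, and each of them lost it when control library a was left out. The balance of directions moved with the scaling too. With each library rescaled to a total of 1e6 the members called were 38 higher and 8 lower, with quantile normalization 29 and 16, and with a trend on transcript length removed 24 and 22. Over all tested genes these settings gave 3854 higher and 3746 lower, 3881 and 3923, and 3897 and 3777.

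The 3 subunit genes with the largest rise belong to different complexes. Ndufs3, whose product is a core subunit of the hydrophilic arm of complex I, stood at 59.1 and 63.9 FPKM (controls) against 139 and 145 (knockouts). Both knockout libraries were above both control libraries (log2 difference 1.20, SE 0.07, limma adjusted p = 0.000425). Uqcrh, the hinge protein of complex III, stood at 69.0 and 75.7 FPKM (controls) against 144 and 156 (knockouts). The groups did not overlap there either (log2 difference 1.04, SE 0.08, limma adjusted p = 0.000631). Atp5b, which encodes the catalytic beta subunit of ATP synthase, rose from 471 and 498 FPKM to 946 and 961, which made it the most abundant transcript of the set in knockout (log2 difference 0.98, SE 0.07, limma adjusted p = 0.000557). The largest fall was that of Atp5g2, one of the genes for the c subunit that forms the rotating ring of ATP synthase. Its level was 282 and 305 FPKM (controls) against 155 and 163 (knockouts), again without overlap (log2 difference -0.88, SE 0.07, limma adjusted p = 0.000741).

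**Figure D2:**
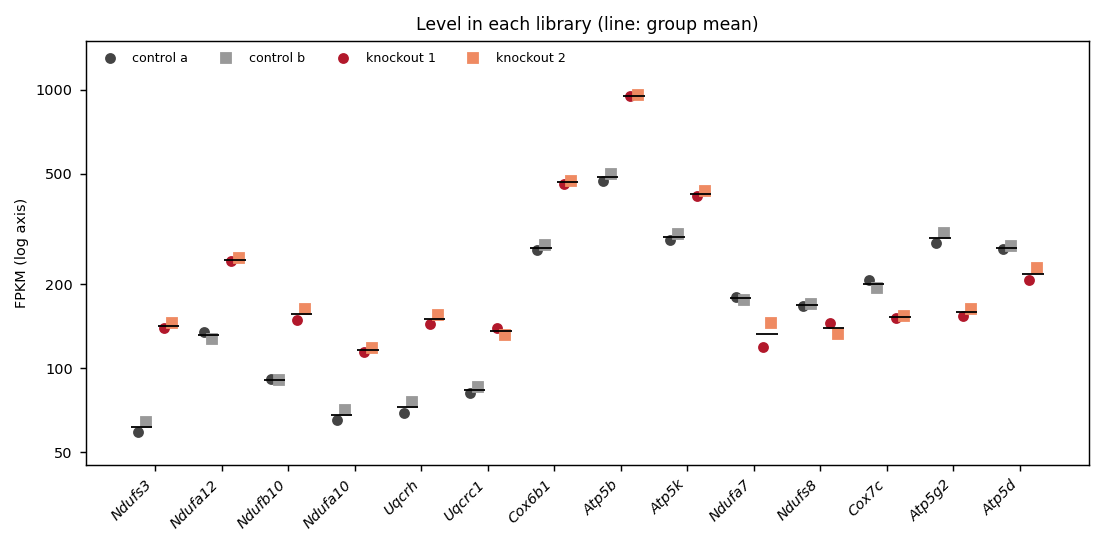
Level of 14 subunit genes in each library (FPKM, log axis); grey symbols are control libraries, red and orange symbols are knockout libraries, and lines are group means of 2 libraries. The first 9 genes are higher and the last 5 lower in both knockout libraries; Atp5b goes from 471 and 498 to 946 and 961 FPKM while Atp5g2 goes from 282 and 305 to 155 and 163.

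The GENCODE M21 genes span, in GRCm38, chr2:90894634-90904827 for Ndufs3, chr4:116066965-116075071 for Uqcrh and chr15:102662864-102672352 for Atp5g2, all read from the minus strand, and chr10:128083273-128090391 for Atp5b, read from the plus strand. Their promoters are shown because these genes carry the largest changes in each direction. Each sequence runs 5′ to 3′ from 250 bases before to 50 bases after the start (RefSeq, GRCm38.p6), with capitals on matches to GCATGCGC with GC before it (the full NRF1 type), GCATGCGC alone (its shorter form, contained in the first), CCGGAAGT (ETS or GABPA type) and AAGATGGCG (YY1 type) on either strand. NRF1, GABPA and YY1 are transcription factors known for respiratory chain promoters. The windows are chr2:90904672-90904971 (minus strand), chr4:116075021-116075320 (minus), chr10:128083057-128083356 (plus) and chr15:102670998-102671297 (minus).

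Ndufs3: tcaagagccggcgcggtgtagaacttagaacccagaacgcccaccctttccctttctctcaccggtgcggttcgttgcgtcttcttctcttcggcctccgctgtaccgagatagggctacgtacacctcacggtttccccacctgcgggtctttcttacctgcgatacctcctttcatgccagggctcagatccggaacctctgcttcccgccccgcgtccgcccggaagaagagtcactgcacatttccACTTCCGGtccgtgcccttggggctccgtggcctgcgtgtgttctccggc

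Uqcrh: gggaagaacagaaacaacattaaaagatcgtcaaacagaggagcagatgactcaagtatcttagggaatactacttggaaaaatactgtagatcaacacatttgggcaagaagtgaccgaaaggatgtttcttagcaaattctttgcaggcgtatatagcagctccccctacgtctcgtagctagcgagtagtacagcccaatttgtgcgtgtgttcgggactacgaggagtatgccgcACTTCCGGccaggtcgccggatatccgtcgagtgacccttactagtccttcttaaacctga

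Atp5b: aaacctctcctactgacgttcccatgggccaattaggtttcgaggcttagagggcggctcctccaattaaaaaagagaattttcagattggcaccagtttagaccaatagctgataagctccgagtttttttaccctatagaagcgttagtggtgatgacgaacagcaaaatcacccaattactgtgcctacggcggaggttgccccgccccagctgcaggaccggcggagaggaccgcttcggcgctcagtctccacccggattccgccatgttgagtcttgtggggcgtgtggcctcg

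Atp5g2: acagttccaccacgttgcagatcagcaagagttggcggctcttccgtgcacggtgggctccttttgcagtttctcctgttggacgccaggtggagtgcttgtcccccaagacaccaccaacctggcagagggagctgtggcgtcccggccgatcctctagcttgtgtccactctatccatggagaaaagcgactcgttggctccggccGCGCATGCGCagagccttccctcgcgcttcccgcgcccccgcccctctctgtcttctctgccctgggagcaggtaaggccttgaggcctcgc

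Ndufs3 and Uqcrh each held ACTTCCGG, the ETS or GABPA type motif on the other strand. Atp5g2 held the full NRF1 type, and Atp5b held none of the 4 motifs. RefSeq promoters were matched for 72 of the 88 genes, 78 promoters in all, and for 13683 promoters of the table's genes. The full NRF1 type was in 8.97% of the members' promoters and in 1.86% of all, and GCATGCGC in 15.4% and 4.81%. CCGGAAGT was in 6.41% and 7.48%, and AAGATGGCG in 11.5% and 2.74%. By call, the full NRF1 type was in 3 of 26 promoters of members called higher (Atp5k, Cox6a1 and Uqcrc1), 1 of 13 of those called lower (Atp5g2) and 3 of 39 of those not called. A match is a description of the letters and shows no binding. Genes with no entry included Atp5a1, Atp5f1, Atp5s, Cox4i1, Cox6a2, Cox6c, Ndufa2, Ndufa4l2, Ndufaf6, Ndufb9, Ndufs1, Sdhc, Uqcrb, Uqcrc2 and Uqcrq.

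Complex I oxidises NADH and is the largest complex of the chain. Of its 36 nuclear subunit genes 11 were called higher and 2 lower (30.6% and 5.56%), with a median log2 difference of 0.06. Over all tested genes 30.1% were called higher and 33.8% lower. Of the 7 core subunits, which hold the flavin and the iron-sulphur clusters or the quinone site, 3 were called higher, among them Ndufs1 and Ndufs3, and Ndufs8 was called lower. Ndufs1, with its iron-sulphur clusters, stood at 30.9 and 30.3 FPKM (controls) against 51.5 and 43.5 (knockouts) (log2 difference 0.61, limma adjusted p = 0.0048). Its groups did not overlap. Ndufs8, an iron-sulphur subunit that sits next to Ndufs7 in the enzyme, went the other way, at 167 and 170 FPKM (controls) against 145 and 133 (knockouts) (-0.27, limma adjusted p = 0.021). Leaving out either control ended the call (adjusted p = 0.109 without a, 0.133 without b), and its difference was -0.45 with the length trend removed. The core genes Ndufs7, Ndufv1 and Ndufv2 were not called, at -0.16, -0.09 and 0.20; with the length trend removed Ndufs7 and Ndufv1 were called lower (-0.34 and -0.23, limma adjusted p = 0.00789 and 0.0178).

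The accessory subunits of complex I surround the core and are needed for its assembly and stability. Of 29 such genes 8 were called higher and 1 lower (27.6% and 3.45%, against 30.1% and 33.8% of all tested genes). Ndufa12, which encodes an accessory subunit of the hydrophilic arm, stood at 135 and 127 FPKM (controls) against 242 and 250 (knockouts) (log2 difference 0.90, SE 0.06, limma adjusted p = 0.000599). Ndufb10, of the membrane arm, stood at 91.3 and 90.6 FPKM (controls) against 149 and 163 (knockouts) (0.77, SE 0.07, limma adjusted p = 0.000922). Both were higher in both knockout libraries, as was Ndufa10, at 65.3 and 70.9 FPKM against 114 and 118 (0.76, limma adjusted p = 0.00095). Ndufa7 was the accessory gene that fell, from 181 and 176 FPKM to 119 and 145 (log2 difference -0.43, SE 0.11, limma adjusted p = 0.019). Its groups did not overlap, and leaving out either control ended the call (adjusted p = 0.0724 without a, 0.0563 without b). The remaining accessory genes called higher were Ndufa8 (0.40), Ndufb6 (0.43), Ndufv3 (0.34), Ndufb7 (0.27) and Ndufa1 (0.23), named to account for every call. Of these, Ndufa8 kept its call throughout. Ndufb6 and Ndufa1 lost it under several settings, among them the removal of the length trend (0.23 with adjusted p = 0.119, and 0.0004 with 0.996). Ndufb7 and Ndufv3 lost it without either control library (adjusted p = 0.108 and 0.127, and 0.0714 and 0.052), and Ndufb7 with quantile normalization (0.0911).

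The 23 complex I subunit genes not called ranged from -0.23 to 0.25, with 13 positive and 10 negative differences. Ndufs6, an accessory zinc-binding subunit and among the most abundant genes of the complex, stood at 176 and 169 FPKM (controls) against 166 and 164 (knockouts) (log2 difference -0.07, limma adjusted p = 0.368). Its knockout libraries both lay below the control libraries by little, and with the length trend removed it was called lower (-0.26, adjusted p = 0.024). By name family, 4 of 12 genes named Ndufa, with Ndufab1 apart and not called, were called higher and 1 lower, 3 of 10 Ndufb higher, 3 of 8 Ndufs higher and 1 lower, 1 of 3 Ndufv higher, and neither Ndufc gene was called.

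Among the 7 Ndufaf genes, whose products help to build complex I and are not part of it, 2 were called higher (28.6%) and 0 lower by limma. Of all tested genes 30.1% were called higher and 33.8% lower. Ndufaf1, a chaperone of the membrane arm, stood at 16.3 and 16.5 FPKM (controls) against 31.7 and 36.1 (knockouts) (log2 difference 1.005, SE 0.088, limma adjusted p = 0.000882). Ndufaf7, a methyltransferase, stood at 13.4 and 13.0 FPKM (controls) against 18.2 and 18.2 (knockouts) (0.43, limma adjusted p = 0.00614; 0.0567 and 0.0731 without control library a or b). Ndufaf3 had 13.4 and 15.0 FPKM (controls) against 16.4 and 18.4 (knockouts) and was not called (0.28, limma adjusted p = 0.0643). In all 3 genes the groups did not overlap, with knockout higher, as was so for 40.4% of all tested genes. Of 8 other complex I assembly genes outside the symbol rule 3 were called higher and 3 lower. Timmdc1 fell from 24.8 and 24.6 FPKM to 10.3 and 11.1 (log2 difference -1.14, limma adjusted p = 0.00056), and Nubpl, which delivers iron-sulphur clusters to complex I, from 14.3 and 13.6 to 8.23 and 6.93 (-0.81, limma adjusted p = 0.0029).

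Complex II, succinate dehydrogenase, is also an enzyme of the citric acid cycle and has no subunit encoded in mitochondrial DNA. Its iron-sulphur subunit gene Sdhb stood at 51.7 and 52.1 FPKM (controls) against 64.5 and 62.5 (knockouts) (log2 difference 0.29, SE 0.06, limma adjusted p = 0.011). The membrane anchor gene Sdhd stood at 85.1 and 94.6 FPKM (controls) against 109 and 112 (knockouts) (0.30, SE 0.07, limma adjusted p = 0.020). Both were called higher, and both calls were lost with the length trend removed (0.12 and 0.14, adjusted p = 0.13 and 0.12) and without control library a (adjusted p = 0.103 and 0.161). Sdhb also lost it without control library b (adjusted p = 0.096), and Sdhd with quantile normalization and without knockout library 2 (0.0536 and 0.0528). The flavoprotein gene Sdha, at 95.1 and 92.8 FPKM (controls) against 110 and 101 (knockouts), was not called (0.17, limma adjusted p = 0.085). The other anchor gene, Sdhc, had 85.5 and 97.1 FPKM (controls) against 80.9 and 83.0 (knockouts) and was not called (-0.15, limma adjusted p = 0.162). In all 4 genes the groups did not overlap, with Sdhc lower and the others higher in knockout. Such separation was common: it held upward for 40.4% of all tested genes and downward for 43.5%. Of 4 complex II assembly genes 3 were called higher, with Sdhaf1 at 5.33 and 6.78 FPKM (controls) against 9.38 and 10.3 (knockouts) (0.63, limma adjusted p = 0.012; 0.082 without control library a) and Sdhaf4 at 0.43 on the log2 scale (limma adjusted p = 0.023; 0.072 and 0.15 without control library a or b, 0.08 with the length trend removed).

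Complex III passes electrons from ubiquinol to cytochrome c. Of its 8 subunit genes 5 were called higher (62.5%) and 0 lower by limma, with a median log2 difference of 0.32. Of all tested genes 30.1% were called higher and 33.8% lower, and the contrast was not tested. Besides Uqcrh, the core protein gene Uqcrc1 stood at 81.7 and 85.8 FPKM (controls) against 140 and 131 (knockouts) (0.69, SE 0.07, limma adjusted p = 0.0011). The small subunit gene Uqcrb stood at 59.0 and 63.3 FPKM (controls) against 79.9 and 83.2 (knockouts) (0.41, limma adjusted p = 0.0054; 0.0509 without control library a, and a difference of 0.21 with the length trend removed). In both genes the knockout libraries were above the control libraries. Uqcr10, another small subunit gene and among the most abundant of the complex, had 191 and 200 FPKM (controls) against 238 and 273 (knockouts) (0.38, limma adjusted p = 0.015). Leaving out either control ended the call (0.0874 without a, 0.0521 without b), and its difference was 0.17 with the length trend removed. Uqcrc2, the second core protein gene, was the remaining call (0.25, limma adjusted p = 0.018), lost without control library a or b (0.141 and 0.114) and with the length trend removed (0.128). Uqcrq, the most abundant subunit gene of the complex, stood at 580 and 587 FPKM (controls) against 511 and 578 (knockouts) and was not called (-0.10, limma adjusted p = 0.319). Its knockout libraries were both lower, library 1 by more. With the length trend removed it was called lower (-0.26, adjusted p = 0.026), as was Uqcr11 (-0.22, 0.017). The Rieske iron-sulphur protein gene Uqcrfs1 was not called (0.23, limma adjusted p = 0.0676), nor was Cyc1, which encodes the cytochrome c1 of the complex and lies outside the symbol rule (-0.13, adjusted p = 0.151). Of 6 complex III assembly genes 1 was called, Uqcc2, lower, at -0.24 (limma adjusted p = 0.038). That call was lost in 6 of the 15 settings, and Bcs1l was not called (0.25, adjusted p = 0.101).

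Complex IV, cytochrome c oxidase, reduces oxygen to water. Of its 14 nuclear subunit genes 5 were called higher and 2 lower (35.7% and 14.3%), with a median log2 difference of 0.15. The shares over all tested genes were 30.1% and 33.8%. Cox6b1, which faces the intermembrane space near the cytochrome c site, stood at 266 and 277 FPKM (controls) against 460 and 471 (knockouts) (0.78, SE 0.06, limma adjusted p = 0.000712). Its groups did not overlap, and no other gene of the complex changed as much. Cox7c, a small membrane subunit gene, stood at 208 and 194 FPKM (controls) against 152 and 154 (knockouts) (-0.39, SE 0.06, limma adjusted p = 0.00513; 0.0551 without control library a). Ndufa4 stood at 538 and 561 FPKM (controls) against 428 and 488 (knockouts) (-0.27, SE 0.09, limma adjusted p = 0.046). Both fell without overlap between the groups. The call on Ndufa4 was lost in 7 of the 15 settings, among them each scaling of the libraries other than quantile normalization (adjusted p = 0.0609 with a total of 1e6, 0.0564 with median-ratio scaling), and its difference was -0.43 with the length trend removed. The other calls, Cox7b (0.36), Cox6c (0.35), Cox6a1 (0.33) and Cox5b (0.30), were each lost without control library a (adjusted p = 0.0933, 0.122, 0.133 and 0.217). With the length trend removed Cox7b, Cox6a1 and Cox5b were not called either (0.0703, 0.228 and 0.238).

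Several subunits of complex IV have a second gene used in heart and skeletal muscle, and the tumours held both forms. Cox6a1, the general form, stood at 317 and 345 FPKM (controls) against 424 and 407 (knockouts). Its muscle form Cox6a2 stood at 19.3 and 15.2 FPKM (controls) against 18.2 and 19.1 (knockouts) (log2 difference 0.12, limma adjusted p = 0.455). Only the general form was separated between the groups. For subunit 7a the general form Cox7a2 had 106 and 114 FPKM (controls) against 106 and 122 (knockouts) (0.05, limma adjusted p = 0.633). The muscle form Cox7a1 had 11.3 and 15.1 FPKM (controls) against 11.5 and 15.8 (knockouts) (0.04, limma adjusted p = 0.862). Neither was separated between the groups. Cox8a, the general form of subunit 8 and the most abundant subunit gene in control, stood at 657 and 719 FPKM (controls) against 775 and 796 (knockouts) (0.19, limma adjusted p = 0.077). The muscle form Cox8b had 21.1 and 22.8 FPKM (controls) against 19.5 and 21.4 (knockouts) (-0.10, limma adjusted p = 0.368). The Cox8a values did not overlap, with knockout higher, and those of Cox8b did; with the length trend removed Cox8b was called lower (-0.34, adjusted p = 0.0103). The 3 muscle forms summed to 51.7 and 53.2 FPKM (controls) against 49.2 and 56.4 (knockouts), beside the skeletal muscle markers given above, of which 0 were called. Cox4i1, which encodes the subunit that binds ATP as a regulator, stood at 482 and 473 FPKM (controls) against 490 and 502 (knockouts) and was not called (0.06, limma adjusted p = 0.459); its difference was -0.04 with quantile normalization and -0.13 with the length trend removed. Cox4i2 and Cox6b2 were not analysed here.

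Of the relatives of complex IV genes, Cox7a2l, whose product joins complexes III and IV in a supercomplex, stood at 242 and 248 FPKM (controls) against 174 and 206 (knockouts). Both knockout libraries were lower, library 1 by more (log2 difference -0.37, SE 0.10, limma adjusted p = 0.021; 0.0721 and 0.0932 without control library a or b). Ndufa4l2, a paralog of Ndufa4 known to be induced by hypoxia, lay at 1.09 to 1.59 FPKM in all 4 libraries and was not called (0.11, limma adjusted p = 0.54). Of 14 tested HIF target and glycolysis genes 3 were called higher and 3 lower, with the hexokinase gene Hk2 at -1.06 and the mitochondrial protease gene Lonp1 at -0.74 (limma adjusted p = 0.00049 and 0.00071). Of 20 complex IV assembly genes, 10 were called higher and 6 lower (50% and 30%, against 30.1% and 33.8% of all tested genes). Taco1, a translation factor for a subunit made in mitochondria, fell from 10.9 and 10.7 FPKM to 3.60 and 4.44 (-1.24, limma adjusted p = 0.0011), and Coa4 from 6.05 and 5.55 to 2.30 and 2.36 (-1.03, limma adjusted p = 0.0012).

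Of the 15 subunit genes of complex V 6 were called higher and 5 lower (40% and 33.3%), with a median log2 difference of 0.07. Calls in nearly equal number were also seen over all tested genes, with 30.1% higher and 33.8% lower. Its F1 head, which makes ATP, is built of alpha and beta subunits around a central stalk. Atp5a1, for the alpha subunit, stood at 366 and 375 FPKM (controls) against 520 and 476 (knockouts) (0.42, SE 0.07, limma adjusted p = 0.00584; 0.0523 without control library a). The central stalk genes went the other way. Atp5c1, for the gamma subunit, stood at 207 and 209 FPKM (controls) against 172 and 171 (knockouts) (-0.28, SE 0.06, limma adjusted p = 0.010). Atp5d, for the delta subunit, stood at 268 and 275 FPKM (controls) against 208 and 229 (knockouts) (-0.31, SE 0.07, limma adjusted p = 0.015). Neither overlapped between the groups, and both calls ended when either control was left out (adjusted p = 0.0902 and 0.104 for Atp5c1, 0.0766 and 0.107 for Atp5d). Their differences were -0.42 and -0.47 with the length trend removed. Atp5e, for the epsilon subunit, had 282 and 283 FPKM (controls) against 226 and 309 (knockouts), which placed the control libraries between the knockout libraries (-0.10, limma adjusted p = 0.602); it was 0.13 without knockout library 1, and without knockout library 2 it was called lower (-0.32, adjusted p = 0.00875). The ratio of Atp5b to Atp5a1 in FPKM, a ratio of levels per length, was 1.29 and 1.33 in control and 1.82 and 2.02 in knockout.

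In the membrane part, the c ring carries protons around as the enzyme turns, and Atp5g1, Atp5g2 and Atp5g3 encode the same mature c subunit with different import signals. Atp5g1 stood at 148 and 148 FPKM (controls) against 176 and 187 (knockouts) (log2 difference 0.29, SE 0.06, limma adjusted p = 0.011). Atp5g3 stood at 343 and 349 FPKM (controls) against 297 and 302 (knockouts) (-0.21, SE 0.06, limma adjusted p = 0.030). All 3 c subunit genes were thus separated between the groups, 1 upward and 2 downward. Of all tested genes 40.4% were separated upward and 43.5% downward. The calls on Atp5g1 and Atp5g3 ended when either control was left out (adjusted p = 0.092 and 0.0902 for Atp5g1, 0.187 and 0.235 for Atp5g3), that on Atp5g3 also with a total of 1e6 (0.062) and without a trend in the variance (0.0667). With the length trend removed, on longest annotated transcripts of 4715 and 862 nt, the differences were 0.48 and -0.39. The summed level of the 3 genes was 772 and 802 FPKM (controls) against 628 and 652 (knockouts). Atp5g2 made up 36.5% and 38.1% of that sum in control and 24.6% and 25.0% in knockout, and Atp5g1 19.1% and 18.5% in control and 28.1% and 28.7% in knockout.

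**Figure D3:**
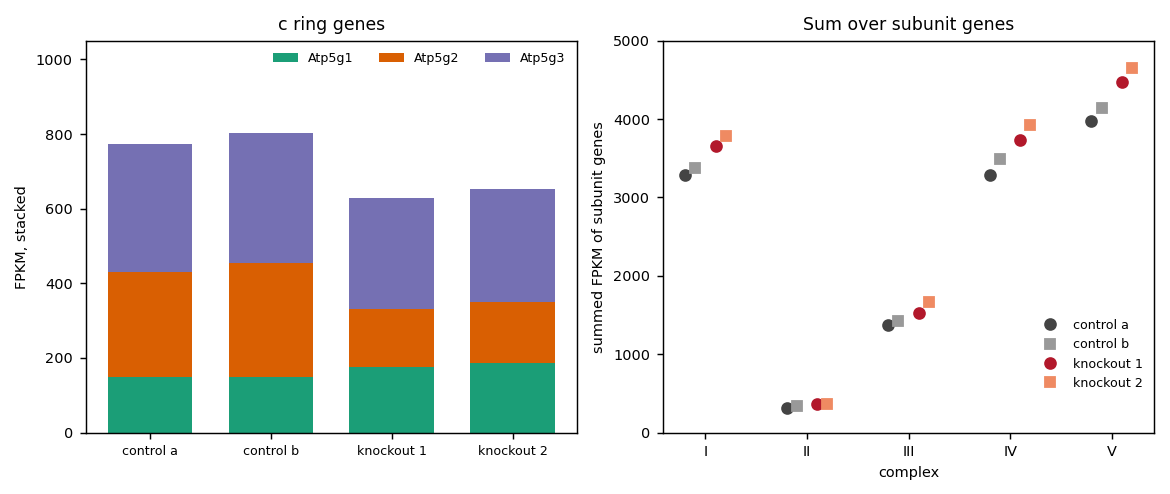
Left, FPKM of the 3 c ring genes stacked for each library; right, summed FPKM of the subunit genes of each complex in each library, with control and knockout libraries side by side. The orange Atp5g2 part shrinks from 36.5% and 38.1% to 24.6% and 25.0% of the stack, while the sums of all 5 complexes are higher in both knockout libraries, that of complex V with Atp5b included.

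The remaining ATP synthase genes belong to the peripheral stalk, which holds the head still, and to the small membrane subunits. In the stalk, Atp5h (0.37) and Atp5f1 (0.31) were called higher (limma adjusted p = 0.00457 and 0.012), and Atp5j and Atp5o were not called (0.08 and 0.07; -0.10 and -0.11 with the length trend removed). Both calls were lost without control library a (adjusted p = 0.0588 and 0.102) and that on Atp5f1 without b (0.0646), and Atp5h stood at 0.18 with the length trend removed. Of the membrane subunits, Atp5k stood at 288 and 305 FPKM (controls) against 415 and 433 (knockouts) (0.52, SE 0.07, limma adjusted p = 0.0024; 0.31 with the length trend removed). Atp5j2 stood at 224 and 232 FPKM (controls) against 174 and 195 (knockouts) (-0.31, SE 0.08, limma adjusted p = 0.021; 0.0815 and 0.123 without control library a or b). Both genes were separated between the groups, in opposite directions. Atp5l was lower in both knockout libraries and not called (-0.21, limma adjusted p = 0.068). Its difference turned to 0.13 with the length trend removed, on a longest annotated transcript of 6310 nt. The relative Atp5sl was called higher (0.49, limma adjusted p = 0.00558; 0.0673 and 0.0538 without control library a or b), and Atp5s was not called (-0.18, 0.163). The assembly genes Atpaf1 and Atpaf2 were called higher by 0.39 and 0.29 (limma adjusted p = 0.029 and 0.021), calls that were lost without either control library (0.239 and 0.0785 for Atpaf1, 0.129 and 0.192 for Atpaf2), for Atpaf1 also without knockout library 1 (0.0701) and for Atpaf2 with the length trend removed (0.116).

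Summed over subunit genes, each complex was somewhat higher in knockout although single genes fell. The 77 genes together stood at 12247 and 12762 FPKM (controls) against 13758 and 14387 (knockouts), 1.13 times the control level. By complex the ratio of knockout to control means was 1.12 for complex I, 1.11 for II, 1.14 for III, 1.13 for IV and 1.12 for V. In each of the 5 complexes both knockout libraries were above both control libraries, for complex V only with Atp5b included. The columns of the whole table summed to 610626 and 626719 FPKM in control and to 592281 and 602271 in knockout. Within complex V the F1 genes stood at 1.30 times and the c ring genes at 0.813 times the control sum. Atp5b alone carried much of this: without it the other 4 F1 genes, of which 1 was called higher and 2 lower, stood at 1.02 times, complex V at 1.01 times and all subunits at 1.09 times. The complex V sum without Atp5b was 3510 and 3649 FPKM (controls) against 3527 and 3691 (knockouts), which overlap.

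Transcript length moved with the differences across the table. Of the tested genes with a longest annotated transcript under 1000 nt 35.8% were called higher and 16.6% lower, and of those of 4000 nt or more 19.8% and 47.6%. Respiratory chain genes are mostly short: 38 of the 88 were under 1000 nt and 29 from 1000 to 2000 nt. In these classes their median log2 differences were 0.08 and 0.07, below the 0.19 and 0.16 of all tested genes. In the longer classes the order turned. The 17 members from 2000 to 4000 nt had a median of 0.31, with 9 called higher and 1 lower, against 0.05 for all tested genes. The 4 members of 4000 nt or more (Ndufb2, Ndufb7, Atp5g1 and Atp5l) had 0.09 against -0.26. They were classed by the longest annotated transcript, which need not be the one expressed. Values with the length trend removed rest on the same lengths, and which transcripts were expressed was not tested. Across genes the rank correlation of the log2 difference with length was 0.06 over the 88 members and -0.26 over the 11958 tested genes with a length, which share the same 4 libraries and are not independent. With the length trend removed the median over the 88 genes was -0.0027, and 24 were called higher and 22 lower. Complex I then had 9 genes higher and 10 lower, complex III 4 and 2, complex IV 2 and 3, complex V 6 and 5, and in complex II limma called 0. Ndufs3, Uqcrh, Atp5b and Atp5g2 kept their directions, at 1.02, 0.85, 0.84 and -1.07.

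**Figure D4:**
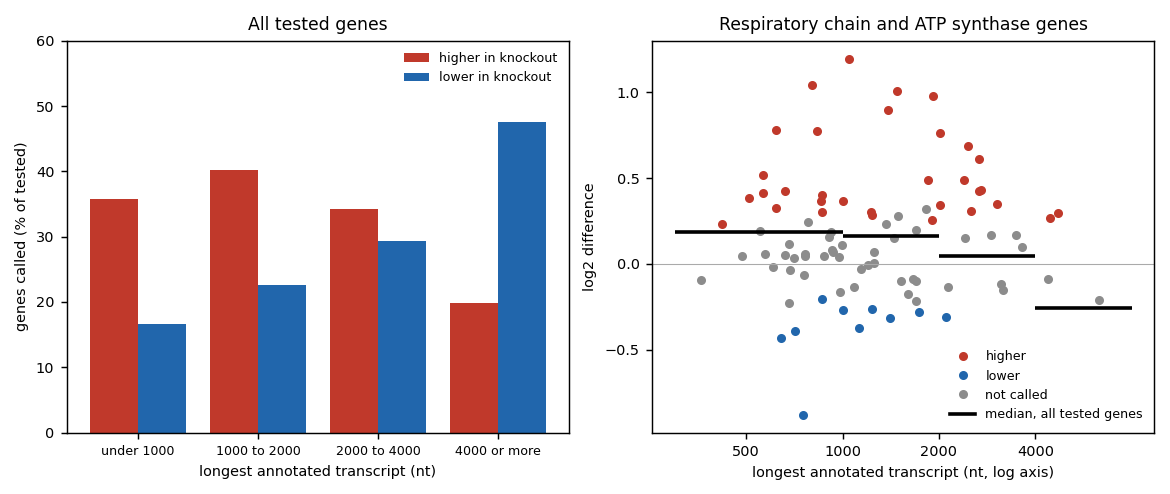
Left, percent of all tested genes called higher (red) or lower (blue) in knockout by class of longest annotated transcript; right, log2 difference of the 88 genes against that length (log axis), coloured by call, with black lines for the median of all tested genes in each class. Higher calls outnumber lower calls in the 3 shorter classes (35.8%, 40.2% and 34.2% higher) and lower calls lead in the longest (47.6%), and most of the 88 genes sit below 2000 nt.

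Other genes that serve oxidative phosphorylation also moved in both directions, as did all tested genes, of which 30.1% were called higher and 33.8% lower. The lists are small, and their counts were not tested against these shares. Of 17 genes of the citric acid cycle and pyruvate dehydrogenase, which supply NADH and succinate, 9 were called higher and 3 lower. The malate dehydrogenase gene Mdh2 rose from 261 and 274 FPKM to 584 and 586 (log2 difference 1.13, limma adjusted p = 0.00041), and the pyruvate dehydrogenase beta gene Pdhb from 58.7 and 59.4 to 122 and 124 (1.04, limma adjusted p = 0.00041). Those called lower included, chosen after their values were seen, Pdha1, the alpha partner of Pdhb (-0.86, limma adjusted p = 0.000869), and the citrate synthase gene Cs (-0.54, 0.0014). Of 9 coenzyme Q synthesis genes 2 were called in each direction. Coq2, which attaches the tail of coenzyme Q, fell from 49.5 and 45.2 FPKM to 14.5 and 14.6 (-1.64, limma adjusted p = 0.00033), and Pdss1, which makes that tail, rose from 6.94 and 8.13 to 18.5 and 18.8 (1.21, limma adjusted p = 0.00081).

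Of 9 carriers and channels for nucleotides and phosphate 5 were called higher and 1 lower, with the outer membrane channel gene Vdac3 at 1.23 (limma adjusted p = 0.00038). The phosphate carrier gene Slc25a3, which brings in the phosphate that ATP synthase uses and was picked with its values in view, stood at 241 and 262 FPKM (controls) against 429 and 428 (knockouts) (0.77, limma adjusted p = 0.000932). Of 7 subunits and carriers outside the symbol rule 3 were called higher and 1 lower. Usmg5, a small ATP synthase subunit gene, rose by 0.37 (limma adjusted p = 0.0090; 0.0738 and 0.0551 without control library a or b) and Minos1, of the inner membrane organizing system, by 0.48 (limma adjusted p = 0.0061; 0.0598 without control library a). Of 17 genes for import and membrane organization 5 were called higher and 7 lower. The cristae gene Chchd3 fell from 65.6 and 72.3 FPKM to 26.4 and 26.8 (-1.34, limma adjusted p = 0.00042), and the import motor gene Hspa9 from 820 and 851 to 352 and 317 (-1.32, limma adjusted p = 0.00045). Of 8 antioxidant genes 2 were called higher and 1 lower, with Sod2 at 0.59 and Txn2 at -0.67 (limma adjusted p = 0.0016 and 0.00094). The uncoupling protein gene Ucp2 was called higher (0.69, limma adjusted p = 0.0014) and Ucp3 was not called (0.11, 0.673).

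Regulators of mitochondrial genes were called lower or not called. Of 15 tested members of that list 0 were called higher and 7 lower by limma, with a median log2 difference of -0.26, where 33.8% of all tested genes were called lower. These are long transcripts (median 4097.5 nt), and of all tested genes of 4000 nt or more 47.6% were called lower, near the share in the list. After removal of the length trend 1 was called higher and 8 lower, and the median log2 difference was -0.32. Over all tested genes 3897 were then called higher and 3777 lower, with a median of 0.02. The part of length in the calls on this list was not tested. The gene then called higher is Tfam, the packaging factor of mitochondrial DNA, at 0.33 (limma adjusted p = 0.0163) against 0.23 (0.0708) as fitted. Tfb1m, which methylates mitochondrial ribosomal RNA, fell from 11.6 and 11.0 FPKM to 3.40 and 3.51 (-1.46, limma adjusted p = 0.00049). Pprc1, a coactivator of respiratory genes, fell from 55.9 and 56.6 to 28.5 and 22.5 (-1.12, limma adjusted p = 0.0015). The genes for the factors whose motifs were counted were chosen with the motifs: Nrf1 stood at -0.47 (limma adjusted p = 0.00733; 0.0737 without control library b), Yy1 at -0.85 (0.00354) and Gabpa, which was not called, at -0.23 (0.265).

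Set beside other large complexes, the counts differed, and these contrasts were not tested. Of 76 tested cytosolic ribosomal protein genes 4 were called higher and 46 lower (median log2 difference -0.39). Of 77 mitochondrial ribosomal protein genes 33 were called higher and 21 lower (0.13), and of 37 tested proteasome genes 28 were called higher and 0 lower by limma (0.51). Mixed directions were seen in the respiratory genes, in the mitochondrial ribosome and over all tested genes, of which 30.1% were called higher and 33.8% lower. Lower calls made up 11.4% of the respiratory genes and 27.3% of the mitochondrial ribosomal genes. The mitochondrial ribosome also had large changes each way, Mrps31 at 1.24 and Mrpl54 at -1.47 (limma adjusted p = 0.00040 and 0.00030).

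Overlapping genes limit some single values, because the sources used here do not state how strand was handled in counting. In GENCODE M21, 26 of the 88 genes overlap another protein-coding gene, 24 of them one on the opposite strand, among them Ndufs3 with Kbtbd4 over 88 nt. Kbtbd4 lay at 7.24 to 10.1 FPKM in all libraries, below each value of Ndufs3. Atp5b holds the small RNA genes Snord59a and Mir677 inside it, and Mir677 was listed at 0 in 3 libraries and at 185 FPKM in knockout library 2, while Atp5b stood at 946 and 961 FPKM in the knockout libraries. Atp5j overlaps Gabpa on the opposite strand by 701 nt.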

How the data were processed

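RNA-seq of 4 mouse tumour libraries was analysed, 2 control and 2 with Kdm4a knocked out. Per the labels' protocols, polyadenylated RNA was selected and a stranded kit was used. The submitters' processing notes name TopHat, Cufflinks and mm9; the sources used here give no versions, annotation or strand setting. The authors deposited FPKM values for 14159 genes in 1 table, whose sheet is named for CPM; they were read as FPKM because the columns sum to 592281 to 626719 and levels show no rise with transcript length (rank correlation -0.085 to 0.013). Read numbers are unknown, so no counting interval is given.

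The 12046 genes that reached 1 FPKM in 2 or more libraries were fitted on log2(FPKM + 1) with limma 3.58.1 in R 4.3.3 (eBayes with a trend), two-sided, with Benjamini-Hochberg adjustment and a threshold of 0.05. The fit had 2 residual degrees of freedom, with 2.93 more from the prior. SE is limma's moderated standard error; fold changes of low genes are understated. The fit was tested on simulated data. Lengths are the longest GENCODE M21 transcripts (GRCm38), matched by symbol for 14031 genes, and not the models the authors used; no coordinate was converted. The length alternative removed a lowess trend (span 0.3) from each library. Promoters and lists are descriptions with no test.

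The genes, lists and naming rule were chosen with earlier results of these data known. The rule names in each complex the 3 subunits with the smallest p, the 2 most abundant and those called against the majority, the isoform sets, the Sdh genes, Kdm4a, 3 Ndufaf genes and 2 genes of each other list; further members are named to account for every call. Alternatives covered the pseudocount (0.5 and 5), the filter (none and 5 FPKM), scaling, variance moderation, length and leaving out each library. Tests on the brown fat list were not possible, as its genes were not analysed here; in the adipocyte list Fabp4 was called lower (-0.62; the call was lost with quantile normalization, adjusted p = 0.0586, with the length trend removed, 0.0592, and without control library a or b, 0.0746 each) and Cfd was not called (-1.02, adjusted p = 0.0959), and in the pericyte list Notch3 was called lower (-1.37) and Rgs5 was not called. Results on 2 genes that the rule would name are not reported here.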

Additional observations from a re-analysis of the deposited data

How the results depend on the processing

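No paired analysis was possible because the control columns carry no replicate number of their own, so the replicate block was not run. Members called higher numbered 32, and 13 to 34 when 1 library was left out; those called lower numbered 10, and 1 to 14. Of the other settings, quantile normalization gave 16 members lower and the removal of the length trend 22. Counts over all tested genes stayed within 1.5 times of 3628 higher and 4073 lower. With the length trend removed, differences changed sign for Atp5j (-0.0988), Atp5l (0.13), Atp5o (-0.11), Cox4i1 (-0.13), Cox6a2 (-0.0787), Cox7a1 (-0.17), Cox7a2 (-0.14), Cox8a (-0.0148), Mb (-0.0546) and Ndufa4l2 (-0.0668), with quantile normalization for Atp5j (-0.0228), Atp5o (-0.0081), Cox4i1 (-0.0423) and Cox7a2 (-0.055), and with a total of 1e6 for Uqcr11 (0.0336). Leaving out 1 library at a time also changed signs, with ranges of -0.32 to 0.13 for Atp5e, -0.0439 to 0.28 for Cox6a2, -0.17 to 0.26 for Cox7a1, -0.0461 to 0.15 for Cox7a2, -0.035 to 0.27 for Mb, -0.0505 to 0.31 for Myh4, -0.0459 to 0.27 for Ndufa4l2, -0.15 to 0.53 for Rgs5, -0.11 to 0.33 for Ucp3 and -0.10 to 0.07 for Uqcr11. None of these genes was called in the fit as reported, and the cause was not tested. These sign changes are those among the 124 genes named with values or called. With the length trend removed, members outside the 124 changed sign too: Ndufa2, Ndufa5, Ndufa9, Ndufa13, Ndufb2, Ndufb3, Ndufb4, Ndufb9, Ndufb11 and Ndufc1. Of these Ndufb9 went from 0.035 to -0.16 and was then called lower (limma adjusted p = 0.0381). Over the 124 genes and 15 settings, 1683 of 1854 values kept direction and side of the threshold, 106 lost a call, 36 gained one and 29 changed sign. The unknown depth, 2 libraries a group and differences often under 0.4 on the log2 scale limit what can be called.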
